A study of Mus musculus with 6 samples.

Results

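Apelin and CXCL12 signalling was examined through 6 genes in the outflow tract, the vessel-like outlet of the embryonic mouse heart. Apela and Apln encode peptide ligands and Aplnr encodes the receptor that both peptides share. Cxcl12 encodes a chemokine, Cxcr4 the receptor through which it guides cells, and Ackr3 an atypical receptor that takes CXCL12 up and lowers its level outside the cell. The 6 genes were selected by name from the 18194 genes that a probe set of the array names on its own, and they were chosen with knowledge of their measured difference between superior and inferior tissue. That difference is therefore given as a description, with no p-value for any of the 6 genes. Whether a fit called these genes between regions is stated below, but is not read as support. All probe sets that name only 1 of these genes were taken, 10 in all.

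The tissue came from CD1 mouse embryos at embryonic day 10.5. Superior and inferior parts of the outflow tract were dissected, and each region has 3 pools, numbered 1, 6 and 7, with 1 Affymetrix array per pool. The sample labels give 6 littermate embryos for each pool, whereas the series text gives 7 pieces per region, and the sources used here do not settle which is right. No group carries a mutation, transgene or treatment, so the comparison is between regions of unmanipulated hearts. The sources used here do not state what a pool number stands for, or that pools came from different litters. The p-values for regions therefore measure spread among these pools only. In the fit without the pool number, that is the spread of the pools within a region. In the fit with the pool number, it is the spread of the region difference from pool to pool.

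As background, the apelin receptor and its ligands act on mesoderm and endothelium from gastrulation onward, and the receptor marks growing veins and the sinus venosus, a source of coronary vessels. APELA, also called ELABELA or Toddler, is the earlier of its ligands to be made in the embryo, and apelin is best known as a product of endothelial tip cells. CXCL12 draws CXCR4-bearing endothelial cells toward the aorta when the coronary arteries connect to it, and ACKR3 is needed for normal semilunar valves, which form in the outflow tract.

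The upstream sequences of Apela and Apln are shown side by side as those of the ligands of the same receptor. Each sequence holds the 250 bases before the RefSeq start of the gene on build GRCm38.p6, read 5′ to 3′ on the minus strand. Capitals mark the GC box, GGGCGG or CCGCCC on the strand shown. Apela lies at chr8:65037337-65037586 and Apln at chrX:48034854-48035103.
Apela: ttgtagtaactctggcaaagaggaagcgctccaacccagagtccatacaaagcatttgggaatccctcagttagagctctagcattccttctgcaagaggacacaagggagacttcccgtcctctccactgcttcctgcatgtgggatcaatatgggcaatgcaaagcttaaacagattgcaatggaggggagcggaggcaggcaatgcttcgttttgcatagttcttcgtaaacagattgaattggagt
Apln: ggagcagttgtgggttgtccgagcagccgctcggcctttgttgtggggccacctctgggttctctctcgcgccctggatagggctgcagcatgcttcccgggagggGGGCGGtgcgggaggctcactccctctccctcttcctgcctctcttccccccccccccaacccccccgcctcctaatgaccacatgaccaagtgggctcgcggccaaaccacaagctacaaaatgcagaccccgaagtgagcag

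The Apela sequence has 0 GC boxes and 5 CpG pairs, and its GC content is 48.0%. The Apln sequence has 1 GC box, which begins 144 bases before the start, and 12 CpG pairs at a GC content of 65.2%. A GC box is present in 32.7% of the 32851 RefSeq windows of this length, and their median GC content is 52.4%. A promoter sequence was matched for 5 of the 6 genes, Aplnr being the other. Cxcl12 has 5 matches to the GC box, of which the pair nearest the start overlap, Cxcr4 has 3 and Ackr3 has 1. Among these 5 genes Cxcr4 and Ackr3 hold the letters TATAAA or its reverse TTTATA, which 12.4% of all windows hold. The core of the hypoxia response element was searched as ACGTG and as GCGTG, with their reverses CACGT and also CACGC, and is present in 38.6% of windows, and Cxcr4 and Ackr3 hold 1 each. These matches describe letters only, and the arrays hold no measurement of binding or chromatin at them.

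Values are MAS5 signals, which the authors scaled so that the trimmed mean of each array is 100. A signal is a linear brightness that depends on the other signals of the same array and cannot be set against that of another probe set as a level of RNA. A signal above 8.0 is called above background, since that was the highest signal of 27 bacterial control probe sets with no added transcript. Between 58.4% and 63.1% of probe sets lay above this level on the 6 arrays. Hybridisation controls were bright on the superior 6 array, at 1.64 times the median array, the others lying between 0.869 and 1.03. Both pool 1 arrays stood apart in RNA measures, with a Gapdh 5′ to 3′ signal ratio of 0.769 and 0.452 against 1.11 to 1.20 in the other 4 arrays. Their 18S ribosomal RNA signal was 103.8 and 95.6 against 475.3 to 785.6. Region differences are superior minus inferior on the scale log2(signal + 3.2), fitted with limma. Probe sets with a mean above about 15.1 were tested, which left 22518 probe sets, 8 of the 10 for these genes among them.

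Apela was higher in the superior region. Its brighter probe set, 1436287_at, had signals of 291.0, 351.8 and 225.2 in superior pools 1, 6 and 7. The corresponding inferior pools had 143.3, 113.8 and 133.4. The regions did not overlap, since the lowest superior value exceeded the highest inferior value, as was the case for a separation in either direction in 9.21% of all tested probe sets. The means were 289.3 ± 63.3 (SD, n = 3) and 130.2 ± 15.0 (SD, n = 3), and the log2 difference was 1.12 ± 0.19 (SE), or 2.17-fold. The ratio of superior to inferior signal was 2.03 within pool 1, 3.09 within pool 6 and 1.69 within pool 7. The difference was 0.97 without the superior 6 array and 1.17 without pool 1.

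The other Apela probe set, 1442571_at, did not show this. It had signals of 12.7, 18.2 and 12.3 in superior and 19.2, 6.8 and 13.3 in inferior pools, so that the regions overlapped and 1 of 3 pools was higher in superior. Its log2 difference was 0.17 ± 0.33 (SE). This probe set lay at the 48.1 percentile of mean signal, just under the limit for testing, and 1 of its 6 signals lay below background. The Apela difference therefore rests on a single probe set.

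**Figure D1:**
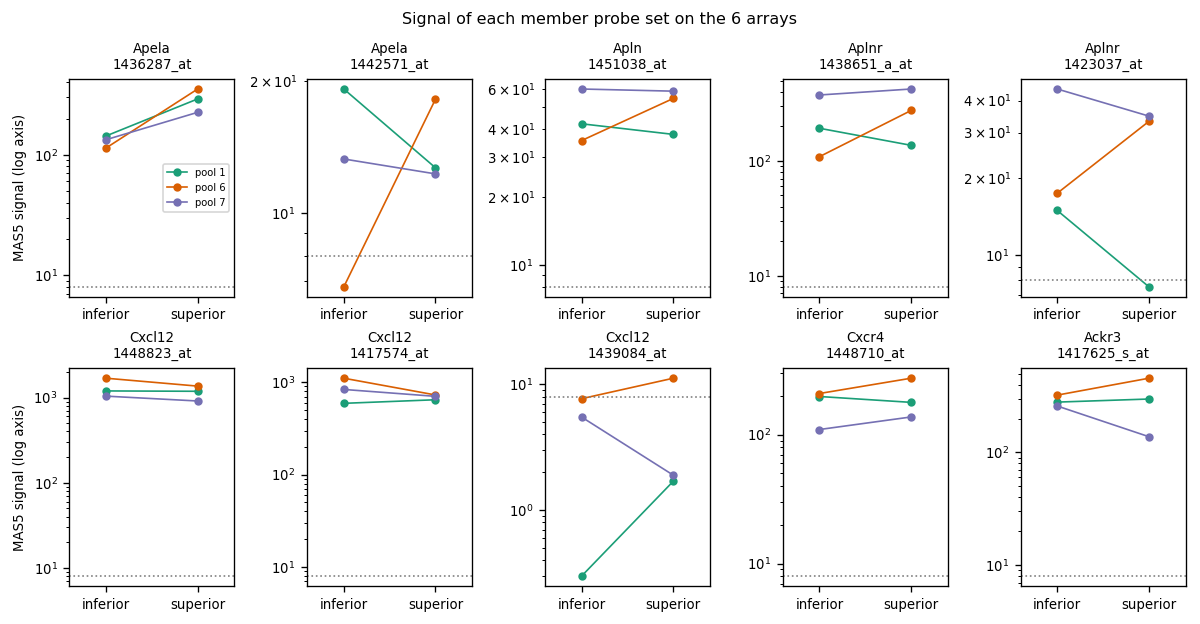
MAS5 signal on a log axis, with its own range in each panel, of the 10 probe sets in the inferior and superior region, with a line joining the arrays of a pool number and a dotted line at the background signal of 8.0. The 3 lines of Apela 1436287_at all rise from inferior to superior without overlap of the regions, while the lines of every other probe set leave the regions overlapping.

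Apln, the other ligand of the receptor, had no such separation. Its probe set had signals of 37.8, 54.5 and 58.7 in superior pools 1, 6 and 7 and 42.1, 35.5 and 60.0 in inferior pools. The regions overlapped, with pool 7 high in both, and the means were 50.3 ± 11.1 (SD, n = 3) and 45.9 ± 12.7 (SD, n = 3). The log2 difference was 0.13 ± 0.25 (SE), and 1 of 3 pools was higher in superior.

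Aplnr, the shared receptor, differed between pools more than between regions, as tested probe sets commonly did. For its brighter probe set, 67.2% of the log2 sum of squares lay between pools and 5.5% between regions. The medians over all tested probe sets were 59.3% and 9.86%. The brighter Aplnr probe set, 1438651_a_at, had signals of 136.8, 275.2 and 423.3 in superior pools 1, 6 and 7 and 192.6, 108.9 and 375.5 in inferior pools. Pool 7 was highest in both regions, and the regions overlapped widely. The log2 difference was 0.33 ± 0.50 (SE), made up of -0.48 in pool 1, 1.31 in pool 6 and 0.17 in pool 7. Without the inferior 6 array it was -0.09. The dimmer probe set, 1423037_at, had signals of 7.5, 33.2 and 34.8 in superior and 14.9, 17.4 and 44.4 in inferior pools, with a log2 difference of -0.09 ± 0.55 (SE). The Aplnr probe sets had region differences of opposite sign, each smaller than its SE.

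The signals of Cxcl12, the chemokine, overlapped between regions in each of its probe sets. The main probe set, 1448823_at, had signals of 1186.7, 1365.2 and 912.6 in superior pools 1, 6 and 7. In the inferior pools the signals were 1198.1, 1690.5 and 1040.7. Every superior value was below its inferior partner, yet the regions overlapped. The log2 difference was -0.17 ± 0.20 (SE), and it was 0.03 without the inferior 6 array. A further probe set, 1417574_at, had 646.6, 728.6 and 704.2 in superior and 591.6, 1106.1 and 836.0 in inferior pools, a log2 difference of -0.24 ± 0.21 (SE) with pool 1 running the other way. The remaining Cxcl12 probe set, 1439084_at, had signals from 0.3 to 11.2, of which 1 of 6 was above background, so no region difference is read from it.

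The receptors of CXCL12 also overlapped between regions. Cxcr4 had signals of 178.2, 274.4 and 137.3 in superior pools 1, 6 and 7 and 197.9, 208.8 and 109.7 in inferior pools. Its means were 196.6 ± 70.4 (SD, n = 3) and 172.1 ± 54.3 (SD, n = 3), with a log2 difference of 0.19 ± 0.31 (SE). Ackr3 was measured by 1417625_s_at, whose suffix marks a probe set that can match more than a single transcript. Its signals were 298.1, 456.1 and 138.0 in superior and 279.9, 322.9 and 258.4 in inferior pools. The superior values of Ackr3 spread more widely, with means of 297.4 ± 159.1 (SD, n = 3) and 287.1 ± 32.8 (SD, n = 3) and a log2 difference of -0.10 ± 0.37 (SE).

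**Figure D2:**
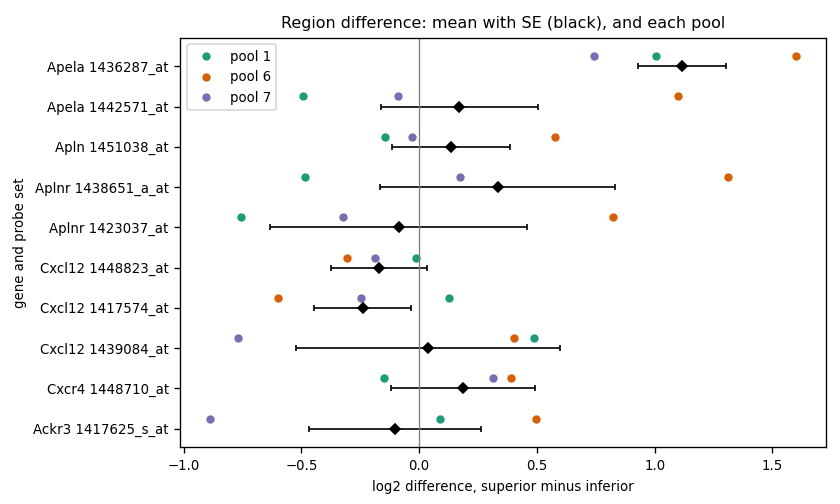
Log2 difference, superior minus inferior, of each probe set. Black diamonds are the mean over pools with its SE from the limma fit without the pool number, and coloured points are the single pools. Apela 1436287_at stands at 1.12 with its pools between 0.74 and 1.60, and every other mean lies between -0.24 and 0.33.

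Without the pool number in the fit, limma called 0 of 22518 probe sets between regions at an adjusted p threshold of 0.05, a background of 0%, and 792 passed at an unadjusted 0.05, or 3.52%. None of the 8 tested probe sets of these genes was among the calls. With the pool number as a block, 36 probe sets were called, a background of 0.160%, and Apela 1436287_at was the 1 called probe set of the 8. That Apela call held in only 4 of 11 alternative settings of the blocked fit. At an unadjusted 0.05 the blocked fit passed 2473 probe sets, or 11.0%. The genes were chosen with this comparison known, so nothing is read from the count of members or from the Apela call.

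In bulk tissue, fewer cells of a type and less RNA per cell cannot be told apart, and a region difference can follow the mixture of cells dissected. Marker genes of the epicardium, the outer cell layer of the heart, differed between regions in the same direction as Apela. All 11 tested epicardial markers of 13 were higher in superior pools (median log2 difference 1.06 against -0.02 over all tested probe sets), and 5 were called in the blocked fit, beside a background of 0.160%. None was called in the fit without the block. At an unadjusted 0.05, 10 passed in each fit, beside 3.52% of all tested probe sets without the block and 11.0% with it. The summed signal of the epicardial markers ranged from 1369 to 2377 in superior and from 832.6 to 1112 in inferior arrays. Of these markers 0 were below background on every array. The defining markers were Tbx18 (305.8 ± 123 in superior, 85.3 ± 44.8 in inferior pools; SD, n = 3), Wt1 (113.6 ± 46.8 and 49.6 ± 5.36) and Upk3b (372.6 ± 139.6 and 172.0 ± 50.2). Of these Tbx18 was called in the blocked fit (log2 difference 1.86 ± 0.12, SE of that fit; limma adjusted p = 0.00260), whereas Wt1 and Upk3b were not (adjusted p = 0.145 and 0.159). Earlier results for epicardial genes were known when this list was written. Whether the Apela difference follows the share of epicardial cells was not tested.

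Heart muscle markers mostly differed in that direction too, and their part in the Apela difference was not tested either. They were bright, with Tnnt2 at 4698 and 4093, and 14 of 15 were higher in superior pools (median log2 difference 0.26). Their summed signal ranged from 49440 to 57470 in superior and from 42720 to 45050 in inferior arrays, and 0 of them were below background on every array. Limma called 0 of the 15 in either fit. At an unadjusted 0.05 the blocked fit passed 8 and the other fit 4, beside 11.0% and 3.52% of all tested probe sets. Nppa, which encodes the atrial natriuretic peptide and was named after its values were seen, had signals of 147.4, 45.9 and 295.4 in superior pools 1, 6 and 7 and 29.3, 16 and 30.4 in inferior pools. The regions did not overlap, as in 9.21% of all tested probe sets. The log2 difference of Nppa was 2.24 ± 0.30 (SE of the blocked fit, limma adjusted p = 0.0622), and its SE was 0.62 in the fit without the block.

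Markers of endocardium and endothelium, the cells in which Aplnr and Cxcr4 are commonly found, ran in both directions. Of 20 tested, 12 were higher and 8 lower in superior pools (median log2 difference 0.02), and 0 were called by limma in either fit, with 0 passing at an unadjusted 0.05 in the fit without the block and 1 in the blocked fit, against 3.52% and 11.0% of all tested probe sets. Their summed signal ranged from 4902 to 5595 in superior and from 4816 to 5405 in inferior arrays. The endothelial cadherin gene Cdh5 had 285.9 and 280.2, the receptor kinase gene Tek 678.9 and 597.7, and the endocardial transcription factor gene Nfatc1 236.6 and 258.7 as superior and inferior means. Differences of single markers were larger in Emcn and Cldn5, both named after their values were seen. Emcn, which encodes an endothelial surface sialomucin, had means of 149.7 ± 64.3 and 114.9 ± 91.7 (SD, n = 3) and was higher in superior in 3 of 3 pools. Its log2 difference was 0.56 ± 0.17 (SE of the blocked fit; limma adjusted p = 0.345). Cldn5, an endothelial tight junction gene, had 43.0 ± 8.51 and 30.3 ± 24.3 (SD, n = 3), with a log2 difference of 0.69 ± 0.35 in 2 of 3 pools (SE of the blocked fit; limma adjusted p = 0.511). Among the 8 lower markers, Kdr and Fli1 were lower in superior in 3 of 3 pools. Their log2 differences were -0.22 ± 0.10 and -0.20 ± 0.12 (SE of the blocked fit, limma adjusted p = 0.466 and 0.558). These 2 were also named after their values were seen.

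**Figure D3:**
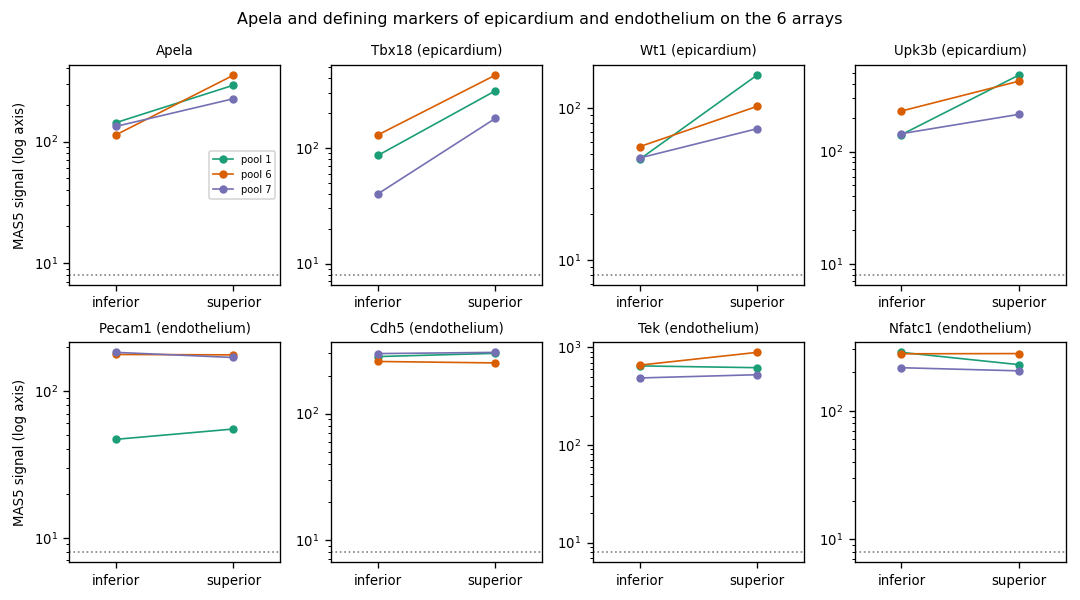
MAS5 signal on a log axis of Apela 1436287_at and of defining markers of epicardium and endothelium in both regions, with a line joining the arrays of a pool number and a dotted line at background. Apela and the epicardial markers are higher in superior in all 3 pools, while the endothelial markers plotted overlap between regions and Pecam1 is low in both arrays of pool 1.

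The other marker lists were used to check the tissue label. Second heart field markers were lower in superior pools in 5 of 7 (median log2 difference -0.31), neural crest markers in 5 of 6 (-0.43) and cushion mesenchyme markers in 8 of 9 (-0.14). Of the neural crest markers 2, Foxd3 among them, lay below background on all 6 arrays. The 3 tested smooth muscle markers were higher (0.17), as were 5 of 6 red blood cell markers (0.22). The defining smooth muscle marker Myh11 was too dim to test, with signals from 0.7 to 11.6. White blood cell markers were higher in 2 of 4 (0.03), venous endothelial markers in 2 of 3 (0.03), arterial endothelial markers in 0 of 4 (-0.10) and pharyngeal endoderm markers in 1 of 2 (-0.12). No gene of these 9 lists was called between regions by limma in either fit at an adjusted 0.05. At an unadjusted 0.05 the blocked fit passed 3 second heart field, 3 neural crest, 2 cushion and 1 red blood cell marker, and the fit without the block passed 1, 2 and 1 of the first 3 of these lists, beside 11.0% and 3.52% of all tested probe sets.

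The spread of each gene over the 6 arrays was then divided into a part between regions, a part between pools and a remainder. For Apela 1436287_at, 87.8% of the sum of squares of the log2 values lay between regions and 3.06% between pools. For the other tested probe sets the part between regions ranged from 0.345% to 17.0%, and the part between pools from 56.9% to 87.0%. Over all tested probe sets the medians were 9.86% between regions and 59.3% between pools. The part between regions restates the region difference known when the genes were chosen, so it is a description only. Regions are fewer than pools, so noise alone would put a smaller part between regions than between pools.

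**Figure D4:**
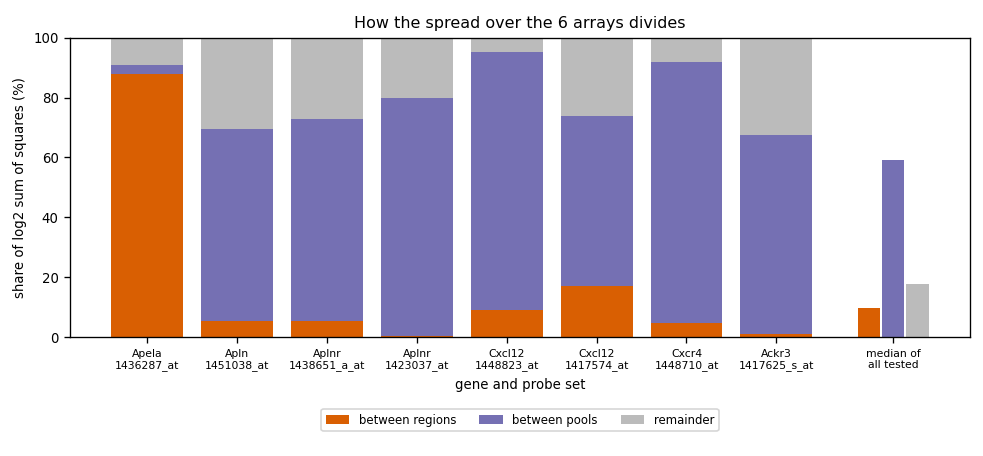
Share of the sum of squares of log2 values over the 6 arrays that lies between regions, between pools or in the remainder, for the 8 tested probe sets, with the medians over all tested probe sets at the right. The part between regions is 87.8% for Apela and at most 17.0% for the others. It restates the region difference known when the genes were chosen.

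Differences between the pool numbers were not used to choose the genes, and they were tested in the blocked fit with region held. This test was added after the values were seen. Each pool number has 1 array per region, so the p-values between pools are set against the spread left after region and pool. They cannot tell a difference between embryos from a difference in RNA quality or array handling shared by a pool number. Between pools limma called 3174 of 22518 probe sets, a background of 14.1%. Cxcr4 differed between pools (adjusted p = 0.0126). Its mean over both arrays was 188.0 for pool 1, 241.6 for pool 6 and 123.5 for pool 7, with pool 6 highest and pool 7 lowest in each region. The main Cxcl12 probe set differed as well (adjusted p = 0.0168), with 1192, 1528 and 976.6 in pools 1, 6 and 7 and the same order in each region. Without pool 7 the Cxcr4 call ended (adjusted p = 0.138), as did that of Cxcl12 (0.0826), and without pool 1 that of Cxcl12 did too (0.0691).

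The dimmer Aplnr probe set passed between pools (adjusted p = 0.0407), with 11.2, 25.3 and 39.6 in pools 1, 6 and 7, while the brighter did not (0.161), with 164.7, 192.0 and 399.4. Both were highest in pool 7 and lowest in pool 1. The call of the dimmer Aplnr probe set ended without pool 1 (0.555) and without pool 7 (0.0901), and the brighter passed without pool 6 (0.000544). Ackr3 had 289.0, 389.5 and 198.2 in pools 1, 6 and 7 (0.152). Apln had 39.95, 45.0 and 59.4 (0.226). The second Cxcl12 probe set had 619.1, 917.4 and 770.1 (0.113), and Apela had 217.2, 232.8 and 179.3 (0.615).

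Several measures moved with the pool numbers. Pool 1 had the low Gapdh ratio and 18S signal given above, and without pool 1 the count of probe sets called between pools was 295. The endothelial marker Pecam1 was low in pool 1, with 55.0 and 46.8 against 168.8 to 182.9 in the other arrays (limma adjusted p between pools = 0.000328), and 5 of 20 endothelial markers were called between pools beside the background of 14.1%, Cdh5 not being among them (0.307). For pools 1, 6 and 7 the summed endothelial signal was 4902, 5595 and 5040 in superior and 5011, 4816 and 5405 in inferior arrays. White blood cell markers, of interest because blood cells can also carry Cxcr4, summed to 88.7 and 91.6 in pool 7 against 183.6 to 274.5 in the other arrays. The highest sum, in inferior 1, held a Ptprc signal of 155.4, against 2.8 to 18.8 in the other arrays. The macrophage receptor gene Csf1r, a large part of these sums, had 44.1 and 47.3 in pool 7, 134.0 and 130.0 in pool 6, and 99.7 and 67.3 in pool 1 (0.00396). The part of these measures in the pool differences of Cxcr4, Cxcl12 and Aplnr was not tested.

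Other genes of the apelin and CXCL12 pathways were followed through a list of 45 by role, written with earlier results of these data known. A probe set naming the gene alone existed for 39, of which 32 passed the filter and were tested, with 15 higher and 17 lower in superior pools and a median log2 difference of -0.0024 against -0.02 over all tested probe sets. In both fits limma called 0 of the 32 (background 0% and 0.160%), and at an unadjusted 0.05 the fit without the block passed 1 and the blocked fit 2, beside 3.52% and 11.0% of all tested probe sets. The SE and adjusted p of each pathway gene named here are those of the blocked fit. Among genes of ligand processing and breakdown, 3 of 3 tested were lower, none was called at an adjusted 0.05, and Mme and Furin were the 2 that passed unadjusted in the blocked fit. Mme, which encodes neprilysin, a protease that cleaves apelin, had 133.4 and 206.9 as superior and inferior means, a log2 difference of -0.54 ± 0.16 (SE; limma adjusted p = 0.336). Furin, a convertase of peptide precursors, had a difference of -0.26 ± 0.11 (adjusted p = 0.433), and the CXCL12-cleaving protease gene Dpp4 was too dim to test, with signals from 1.6 to 15.3.

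Of the alternative ligands and binding partners, 1 of 2 tested was higher. Mif, a cytokine that also binds CXCR4, had 3870 and 3331, a log2 difference of 0.22 ± 0.10 (SE; adjusted p = 0.471). Adm, whose peptide ACKR3 can bind, had 29.6 and 30.0. The G protein genes, of which the inhibitory ones carry the signal of both receptors, were higher in 4 of 5, led by Gnai2 at 0.19 ± 0.09 (0.487). Gnai1, Gnai3 and Gnb1 were each higher by less than their SE. Gna13, which is not of the inhibitory class, was lower at -0.15 ± 0.09. Desensitisation genes, which switch receptors off, were higher in 3 of 7. Arrb1, which encodes a beta-arrestin, had -0.19 ± 0.14 (0.658). Genes of signal transduction were higher in 2 of 5, where Rac1, a GTPase of cell movement, had 0.12 ± 0.10 (0.688).

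The oxygen-sensing regulators were included because hypoxia raises several genes of both pathways. They were higher in 2 of 6, and the prolyl hydroxylase gene Egln1 had the smallest p, at 0.14 ± 0.09 (0.622). Hif1a had means of 2192 and 2283. The endothelial response genes were higher in 3 of 4, where the flow-responsive factor gene Klf4 had -0.14 ± 0.13 (0.743). Between pools, 5 of the 32 were called, Arrb1, Grk3, Pik3ca, Klf2 and Edn1, beside the background of 14.1%. Klf2, another flow-responsive factor, had its highest signal in superior 6 at 470.3 and its lowest in inferior 7 at 222.4 (adjusted p between pools = 0.0205).

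**Figure D5:**
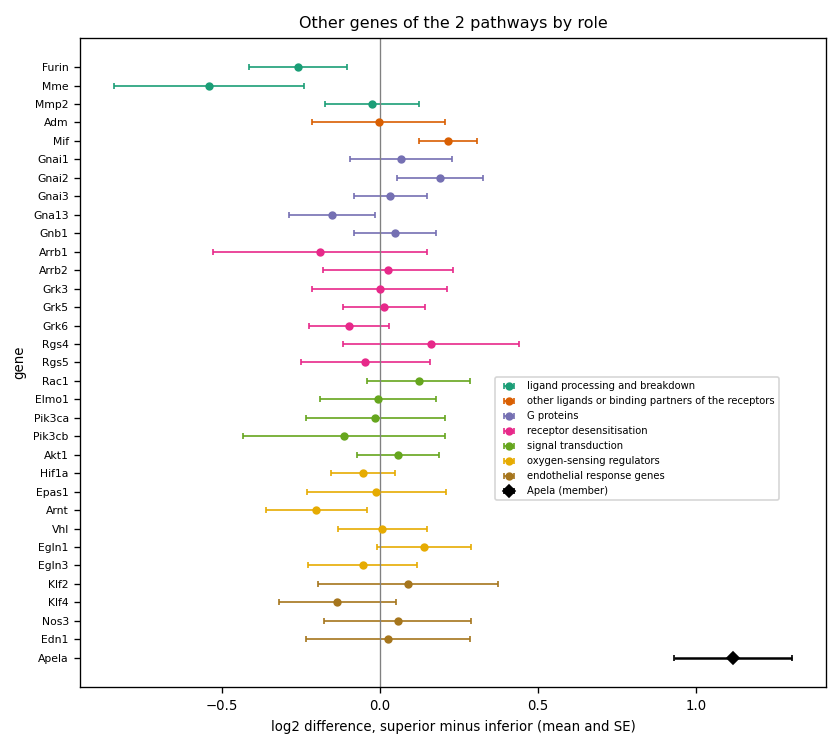
Log2 difference, superior minus inferior, with its SE from the limma fit without the pool number, of the 32 tested pathway genes coloured by role, with Apela 1436287_at in black for scale. The pathway genes lie between -0.54 and 0.22, and Apela lies at 1.12.

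Genes whose pattern over the 6 arrays was most like that of each member were found by the Pearson correlation of log2 values, as a description. The arrays share 3 pool numbers, and with so few arrays high values are common: between 18 and 75 named probe sets of other genes exceeded 0.95 for each member. For Apela the nearest were Slc25a5, which encodes a mitochondrial carrier of adenine nucleotides, at 0.990, Nudt19 at 0.985 and Hax1 at 0.983, whose region differences of 0.24, 0.42 and 0.13 were smaller than that of Apela. For Cxcr4 they were the cardiac transcription factor gene Mef2a at 0.996, the matrix proteoglycan gene Vcan at 0.994 and the transcription factor gene Sox4 at 0.990. For Cxcl12 they were Rab2b, Adamtsl1 and Tm7sf3 at 0.979 to 0.985. For Ackr3 they were the cadherin gene Celsr2 at 0.992, the growth factor receptor gene Egfr at 0.982 and Ccdc184 at 0.977. For Aplnr they were Heatr1, the transcription factor gene Ebf3 and Zfp771 at 0.977 to 0.981, and for Apln the ubiquitin ligase gene Mib1, Kazald1 and Pex6 at 0.973 to 0.978. None of these 18 genes was called between regions in the blocked fit, where the smallest adjusted p was 0.253 and the background of calls 0.160%.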

How the data were processed

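RNA from 3 superior and 3 inferior pools was hybridised to Affymetrix Mouse Genome 430 2.0 arrays. The deposited values are linear intensity signals made by the authors with MAS5, per the submitters' processing notes, with no version given in the sources used here. MAS5 subtracts a mismatch signal, so dim probe sets are noisy. Of 45101 probe sets, 64 controls were left out, and 34945 of the rest named 1 gene in the platform annotation given here. The number of arrays limits the precision.

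Signals were turned into log2(signal + 3.2), the 25th percentile of all signals, and probe sets above the median mean were tested with limma 3.58.1 in R 4.3.3 (trend and robust eBayes, Benjamini-Hochberg adjustment over 22518 probe sets). The main fit had no pool term. Same-numbered arrays deviated together (correlations of 0.793, 0.428 and 0.507 for pools 1, 6 and 7), all above the limit of 0.1 set for pairing, so a fit blocked on pool number is given beside it. Unlike-numbered arrays of pools 6 and 7 reached 0.180 and 0.199. The fit code was tested on simulated data.

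The 6 genes and all lists were chosen with earlier results of these data known. Named pathway genes are those called and, per role, that with the smallest blocked p. Named pattern genes are the 3 most correlated per member. Furin, Dpp4, Adm, Gnai1, Gnai3, Gnb1, Gna13, Hif1a and Klf2 were added after their values were seen. So were Nppa, Emcn, Cldn5, Kdr and Fli1 and the others named between pools. Alternatives were the offset, filter, scaling, variance model, block and arrays left out.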

Additional observations from a re-analysis of the deposited data

How the results depend on the processing

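The filter, the variance model and the block cannot change the log2 difference of a member. Blocked alternatives with all arrays therefore repeat the values of those without the block, and the counts of signs below include these repeats. The log2 difference of Apela 1436287_at was positive in its 26 alternatives, from 0.87 to 1.30, and the other Apela probe set, 1442571_at, had 0.17. Counting its other probe sets as alternatives, Cxcl12 was negative in 26 of 28, with 0.0389 for probe set 1439084_at, and leaving out an array gave -0.32 to 0.0289. Ackr3 was negative in 24 of 26 (-0.49 to 0.36), and Apln (-0.09 to 0.33), Aplnr (both probe sets, -0.16 to 0.79) and Cxcr4 (-0.11 to 0.41) each took both signs. Without the pool block, limma called 0 probe sets between regions in each of 14 alternatives. With the replicate block it called 36, and 22 with an offset of 1, 37 with an offset of 16, 1 with no filter, 2 in the top 25% by signal, 37 under quantile normalization, 38 under 75th percentile scaling, 38 under cyclic loess, 0 without trend and robust variance, and 9, 231 and 113 without pools 1, 6 and 7. Of the pathway genes 0 were called in all 26. Between pools, where limma called 3174, the count was 1660 with no filter, 1444 in the top 25%, 1970 without trend and robust variance, and 295 to 5019 without a pool. There Cxcr4 was called in 9 of 11 alternatives, Cxcl12 1448823_at in 7 of 11 and Aplnr 1423037_at in 5 of 10. The causes were not tested. The blocked fit has few residual degrees of freedom, so its counts lean on variance shared across probe sets.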
